A study of Mus musculus with 65 samples.

Results

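The complement genes described here are C3, C4b, C2, Cfb, Cfi, C3ar1, C5ar1, Cd59a and Serping1, a listed set of components, regulators and receptors outside C1q. They were found by gene symbol, matched to Ensembl identifiers, and make up 9 of the 50686 identifiers counted in whole retinas of 65 adult C57BL/6J mice. The study fed mice PLX5622, an inhibitor of the receptor CSF1R on which microglia depend for survival, and then returned them to control diet so that microglia could come back. Groups were named by diet and day: CD (control diet, n = 5), DEP2, DEP5, DEP7, DEP10, DEP14 and DEP21 (days on PLX5622, n = 4 each, DEP5 n = 3), and REPOP3, REPOP5, REPOP7, REPOP10, REPOP14, REPOP21 and REPOP60 (days of repopulation, n = 4 each, REPOP7 n = 6, and REPOP60 labelled as 2 months). LPSCD mice (n = 3) received lipopolysaccharide (LPS), a bacterial cell wall component, with vehicle and had resident microglia. LPSREPOP mice (n = 4), labelled PLX5622 + LPS, are described by the study as LPS-challenged mice with repopulated microglia; how long they had been off PLX5622 is not given in the sources used here. CSF1R inhibition acts on the whole animal and on other cells that need this receptor, and a whole retina mixes all of its cell types.

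Complement is a cascade of proteases and their targets that tags cells and debris for removal. C4b and C2 form the convertase of the classical and lectin pathways, C3 is the component on which all pathways converge, and factor B (Cfb) forms the convertase of the alternative pathway. Factor I (Cfi) cuts activated C3 and C4, the C1 inhibitor (Serping1) blocks the proteases that start the classical and lectin pathways, and Cd59a stops assembly of the membrane attack complex. C3ar1 and C5ar1 are the receptors for the small fragments C3a and C5a, and in nervous tissue they are best known from microglia and other myeloid cells.

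Libraries held 5106429 to 8760443 assigned reads (median 7944665). Sample titles end in RE (39 mice) or re (26 mice), and a principal component analysis of 12346 genes split the mice by this ending along its leading axis (55.9% of the variance). The endings were mixed in most groups (3 RE and 2 re mice in CD), but all DEP5 mice were RE and all REPOP60, LPSCD and LPSREPOP mice were re, so values within an ending are given where they touch a result. Summed microglial markers (23 genes, in CPM, counts scaled to library size with the TMM method) were 76.3 to 94.4 in CD and 27.7 to 37.4 in DEP14, in which Cx3cr1, Tmem119, Siglech, Trem2 and Tyrobp were at 0. They were 65.6 to 71.5 in REPOP60, 122 to 131 in LPSCD and 81.3 to 119 in LPSREPOP. In such bulk samples, fewer cells of a type and less RNA per cell cannot be told apart.

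Per transcript length, the inhibitor Cd59a was the most abundant of the 9 genes in control retinas and the receptors were the least. On the FPKM scale (fragments scaled for transcript length and sequencing depth), mean levels in the 5 CD mice were 18.2 ± 2.6 (SD) for Cd59a, 4.10 ± 0.56 for Serping1, 2.5 ± 0.72 for Cfb, 1.28 ± 0.63 for C4b and 0.936 ± 0.50 for C2. Cfi stood at 0.368 ± 0.083 FPKM, C3 at 0.166 ± 0.039, C3ar1 at 0.0844 ± 0.029 and C5ar1 at 0.0224 ± 0.032. Cd59a and Serping1 were separated from their neighbours by more than their SDs, whereas C4b and C2 were within theirs. The place of Cfb differed between the FPKM values and the counts, and the cause was not tested. Cfb lies beside C2, and 79.5% of its exon bases and 42.77% of those of C2 are shared on the same strand with Gm20547, an annotated gene with 0 reads in all 65 mice. By counted reads per kilobase of exon, Cfb (0.274 CPM per kilobase) was below C2 (0.591), the reverse of their order in FPKM. C2 also overlaps Zbtb12 on the other strand, and without known strand use their reads cannot be told apart. Reads of C4b are uncertain as well, since 34.57% of its 50-base windows occur in C4a.

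Cfb, C2 and C4b lie in the same part of chromosome 17. On GRCm38 with the GENCODE M21 annotation, Cfb (ENSMUSG00000090231) is at 17:34856374-34862518, C2 (ENSMUSG00000024371) at 17:34862604-34898265 and C4b (ENSMUSG00000073418) at 17:34728380-34743882, all on the minus strand. C3 (ENSMUSG00000024164) is on the minus strand of the same chromosome at 17:57203970-57228136. The regulators Serping1 (ENSMUSG00000023224, 2:84765387-84775444, minus strand) and Cd59a (ENSMUSG00000032679, 2:104095801-104115354, plus strand) share chromosome 2, and Cfi (ENSMUSG00000058952) is at 3:129835884-129875332 on the plus strand. The receptor genes C3ar1 (ENSMUSG00000040552, 6:122847138-122856161) and C5ar1 (ENSMUSG00000049130, 7:16246743-16259540) are on the minus strand.

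Promoter windows from RefSeq (GRCm38.p6) were matched for 4 of the 9 genes. Those of C3, which differed most with LPS, and of both anaphylatoxin receptors are shown as the 250 bases before the RefSeq start. They are at chr17:57228137-57228386, chr6:122856158-122856407 and chr7:16259339-16259588, each written 5′ to 3′ on the minus strand with motif matches in capitals. In GENCODE M21 the C5ar1 gene reaches 7:16259540, so most of its window lies inside that annotated gene. The C3ar1 gene there reaches 6:122856161, a few bases into its window.
C3: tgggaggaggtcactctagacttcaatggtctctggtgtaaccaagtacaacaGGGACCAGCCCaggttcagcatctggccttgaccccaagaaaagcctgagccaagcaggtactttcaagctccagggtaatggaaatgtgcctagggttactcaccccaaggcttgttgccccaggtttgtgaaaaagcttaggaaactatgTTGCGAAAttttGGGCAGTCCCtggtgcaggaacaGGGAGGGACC
C3ar1: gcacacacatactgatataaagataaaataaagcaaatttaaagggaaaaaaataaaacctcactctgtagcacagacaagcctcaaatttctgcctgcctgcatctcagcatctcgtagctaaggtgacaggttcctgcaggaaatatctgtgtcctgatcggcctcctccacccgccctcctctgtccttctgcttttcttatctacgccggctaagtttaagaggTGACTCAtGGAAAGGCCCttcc
C5ar1: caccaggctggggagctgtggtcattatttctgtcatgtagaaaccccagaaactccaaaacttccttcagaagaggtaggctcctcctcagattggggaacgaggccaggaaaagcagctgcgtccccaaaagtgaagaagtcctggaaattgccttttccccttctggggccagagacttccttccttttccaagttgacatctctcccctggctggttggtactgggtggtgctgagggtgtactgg
Both strands were searched for an NF-kB motif (GGG, any 5 bases, then CC), a C/EBP motif (TTGCNNAA), an AP-1 motif (TGANTCA), a GAS motif (TTCNNNGAA) and a PU.1 motif (GAGGAAG). C3 held NF-kB matches at -197 to -188, -33 to -24 and -10 to -1 relative to the start, with overlapping matches on the other strand at the first and second of these places, and a C/EBP match at -45 to -38. C3ar1 held an AP-1 match at -22 to -16 and an NF-kB match at -14 to -5, and C5ar1 held no match to these letters. Among all 32851 promoter windows in the table, 45.8% held the NF-kB letters, 9.56% C/EBP, 6.75% AP-1, 7.02% GAS and 10.61% PU.1.

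To ask how these genes stood with loss and return of microglia, diet groups were each set against CD (quasi-likelihood F test of edgeR, all detected genes), and a gene was called at a false discovery rate (FDR) under 0.01 with a log2 fold change beyond 1. None of the 9 genes was called in any of the 13 diet comparisons, in which 8 to 9 of them were tested, and the lowest FDR was 0.2144. The share of all genes called was 0 to 0.0594% per comparison (DEP2 0.0334%, DEP5 0.0345%, DEP7 0.0375%, DEP10 0.0376%, DEP14 0.0335%, DEP21 0.0337%, REPOP3 0.0377%, REPOP5 0.0336%, REPOP7 0.0594% and 0 in the later ones), and all of those calls were lower than CD. At an unadjusted p under 0.05, 16 of 105 tests of these genes passed, beside 2.67% of all genes at DEP2, 6.48% at DEP5, 3.98% at DEP7, 3.52% at DEP10, 2.96% at DEP14, 2.87% at DEP21, 3.4% at REPOP3, 3.57% at REPOP5, 2.86% at REPOP7, 6.15% at REPOP10, 2.24% at REPOP14, 9.58% at REPOP21 and 15.4% at REPOP60. DESeq2 and limma on FPKM called 0 of these genes too. All of these comparisons share the same 5 CD mice. By contrast, all 3 C1q subunits, the microglial starting component of the classical pathway, were called lower from DEP2 to REPOP7, and their summed level went from 7.61 to 12.7 CPM in CD to 0 to 0.125 CPM in DEP14.

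**Figure D1:**
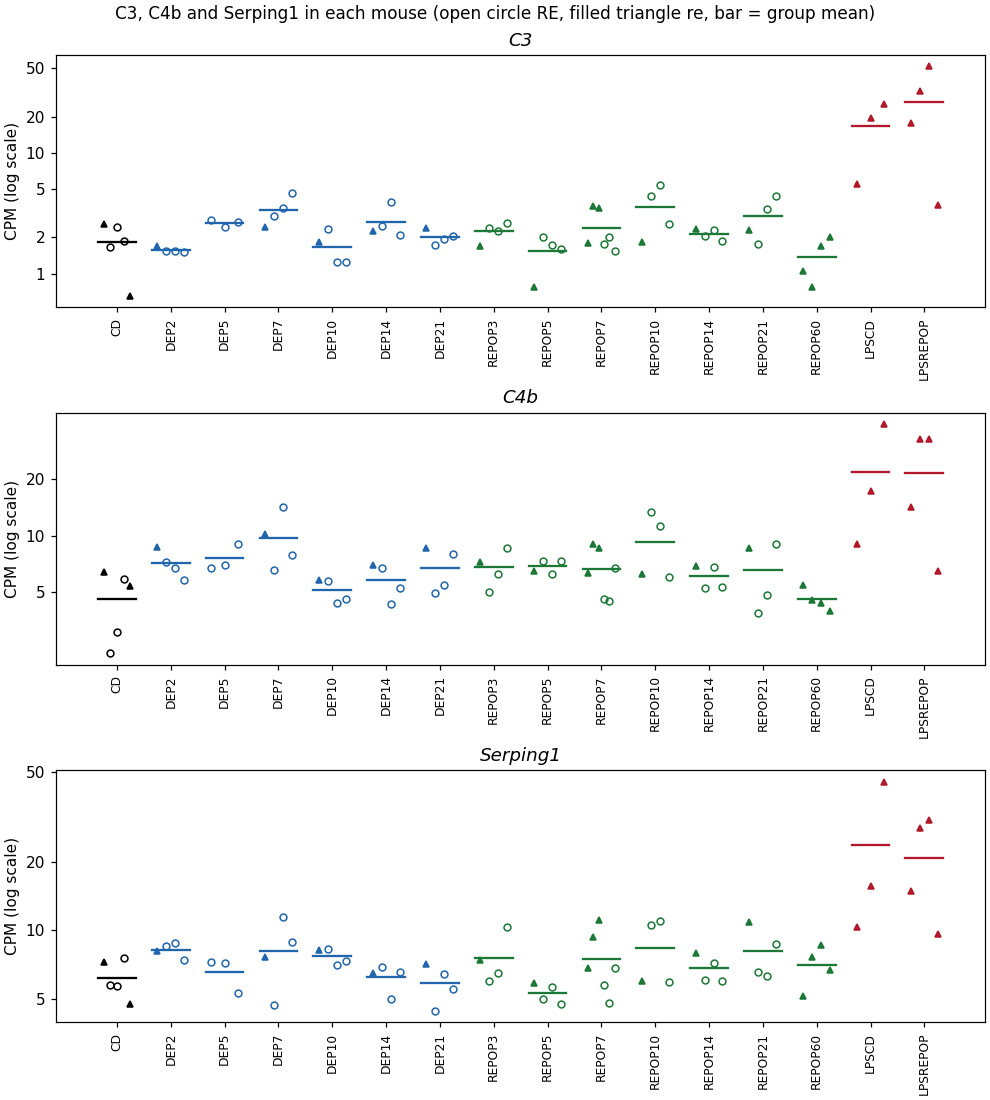
Levels of C3, C4b and Serping1 in each of the 65 mice by group, in CPM on a log axis; open circles are mice with titles ending in RE, filled triangles those ending in re, and bars are group means. Without LPS, C3 stayed between 0.660 and 5.47 CPM, C4b between 2.38 and 14.3 and Serping1 between 4.42 and 11.4, and most of the 7 LPS mice stand above these ranges.

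C3 was present at a low level in every mouse, with or without microglia. The CD mice had 2.58, 1.66, 2.45, 1.88 and 0.660 CPM (1.85 ± 0.765), which rests on 5 to 20 reads per mouse. Depletion groups had means of 1.58 ± 0.0811 CPM at DEP2, 2.63 ± 0.179 at DEP5, 3.40 ± 0.929 at DEP7, 1.67 ± 0.533 at DEP10, 2.70 ± 0.843 at DEP14 and 2.03 ± 0.278 at DEP21. No order with days on the diet was seen, and the DEP7 mice, at 2.42, 3.03, 3.51 and 4.62 CPM, overlapped CD (log2 fold change 0.87, SE 0.31, FDR 0.92). Within RE mice alone DEP7 stood wholly above CD, with means of 3.721 and 1.998 CPM, whereas its re mouse overlapped the re CD mice. The RE mice of DEP2 stood wholly below those of CD, at a mean of 1.54 CPM. With repopulation the means were 2.24 CPM at REPOP3, 1.54 at REPOP5, 2.37 at REPOP7, 3.56 at REPOP10, 2.15 at REPOP14, 2.98 at REPOP21 and 1.38 at REPOP60. REPOP10 was the most variable of these, with 1.82, 4.36, 5.47 and 2.59 CPM, and overlapped CD (log2 fold change 0.93, SE 0.36, FDR 0.68). Its RE mice alone, at a mean of 4.138 CPM, stood wholly above the RE mice of CD, and its re mouse overlapped the re CD mice.

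C4b, which encodes the C4 protein of the classical pathway convertase, had the highest log2 fold change of the members at DEP7 and over DEP5 to DEP21, but neither passed the test. The CD mice had 6.45, 2.38, 3.09, 5.87 and 5.41 CPM (4.64 ± 1.80), and the DEP7 mice had 10.3, 6.57, 14.3 and 7.87 CPM (9.75 ± 3.39). The 2 groups did not overlap, as was the case, in this direction, for 0.65% of all genes tested. The log2 fold change was 1.08 (SE 0.28, unadjusted p = 0.00149, FDR 0.92 in edgeR). With the replicate number as a block, the value was 1.12 (SE 0.16, FDR 6.27e-09) and C4b was called. In that fit 0.0667% of all genes were called in this direction. Same-numbered DEP7 and CD mice varied together, but they also shared their title ending, and no label pairs them. A pairing of mice and the title ending cannot be told apart here, so this call does not stand for paired mice. Within RE mice the DEP7 mean was 9.57 CPM against 3.78 CPM in CD.

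The other depletion groups lay closer to control for C4b. DEP5 mice had 6.73, 7.04 and 9.08 CPM, all above CD (log2 fold change 0.71, SE 0.26, FDR 0.67), in a comparison in which 2.06% of genes stood wholly above CD. Group means were 7.15 ± 1.22 CPM at DEP2, 5.14 ± 0.746 at DEP10, 5.85 ± 1.27 at DEP14 and 6.76 ± 1.82 at DEP21. Over DEP5 to DEP21 together (19 mice), the log2 fold change against CD was 0.56 (SE 0.20, unadjusted p = 0.0079, FDR 0.78), and 0 of 8 tested members were called in this comparison beside 0.122% of all genes. During repopulation the C4b means ran from 6.10 to 6.88 CPM between REPOP3 and REPOP7 and at REPOP14 and REPOP21, and the REPOP60 mice were at 5.50, 4.54, 4.41 and 3.99 CPM, within the CD range.

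REPOP10 again held the highest C4b values of the repopulation groups, in the same mice as for C3. Its mice had 6.23, 13.5, 11.3 and 6.03 CPM of C4b (log2 fold change 0.99, SE 0.30, FDR 0.68), and mice 2 and 3, both RE, were the high ones for C3, C4b and Serping1. Within RE mice the REPOP10 mean was 10.3 CPM against 3.78 CPM in CD. Summed microglial markers in these 4 retinas were 37.4 to 50.7 CPM.

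C2, the protease of the classical pathway convertase, had its highest diet group mean at REPOP60, a group of re mice alone. CD mice had 1.94, 2.02, 1.68, 2.11 and 3.70 CPM (2.29 ± 0.804), and group means without LPS ran from 1.78 CPM at DEP7 to 3.79 CPM at REPOP60. The REPOP60 mice, at 3.41, 4.54, 3.63 and 3.59 CPM, overlapped CD through its highest mouse, which was re (log2 fold change 0.73, SE 0.23, FDR 0.21). Over the mice without LPS, C2 averaged 3.07 ± 0.671 CPM in the 19 re mice and 2.0 ± 0.527 CPM in the 39 RE mice. Within re mice, REPOP60 averaged 3.79 CPM and CD 2.82 CPM, the mean of 1.94 CPM in CD mouse 1 and 3.70 CPM in CD mouse 2M. The label of the latter (CD_2M) carries the same 2M as the REPOP60 labels (RP2M). The part of this shared label and of the title ending in the C2 values was not tested.

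Cfb, the protease of the alternative pathway, had few counted reads, although its mean FPKM in CD (2.5) was above those of C4b and C2. CD mice had 1.42, 0.951, 0.387, 0.587 and 0.528 CPM, from 3 to 11 reads each, and group means without LPS ran from 0.508 CPM at REPOP10 to 1.47 ± 0.31 CPM at REPOP60 (log2 fold change against CD 0.92, SE 0.37, FDR 0.27). As with C2, the re mice without LPS were higher, at 1.10 ± 0.374 CPM against 0.750 ± 0.303 CPM in RE mice.

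No regulator passed the test with diet. Serping1 had 7.23, 5.71, 5.67, 7.52 and 4.75 CPM in CD mice (6.17 ± 1.16), and other group means without LPS ran from 5.30 CPM at REPOP5 to 8.33 ± 2.77 CPM at REPOP10. Over DEP5 to DEP21 its log2 fold change against CD was 0.15 (SE 0.15). Cfi had 1.03, 2.02, 2.45, 1.41 and 1.58 CPM in CD mice, with group means from 1.11 CPM at REPOP60 to 2.55 CPM at DEP5, the group made of RE mice alone. Cfi averaged 1.94 ± 0.611 CPM in RE mice and 1.22 ± 0.496 CPM in re mice without LPS, the opposite order to C2 and Cfb.

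Cd59a had log2 fold changes of -0.30 to -0.02 over the diet comparisons, none of which passed the test. CD mice had 25.03, 30.9, 35.3, 53.9 and 29.8 CPM (SD 11.2), of which the 53.9 was the highest value in the study, and the other group means without LPS stayed between 28.6 CPM at DEP21 and 34.6 CPM at REPOP3. Its log2 fold change over DEP5 to DEP21 was -0.18 (SE 0.13). Cd59a also differed by title ending, at 33.7 ± 4.71 CPM in RE mice and 27.4 ± 3.42 CPM in re mice without LPS.

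**Figure D2:**
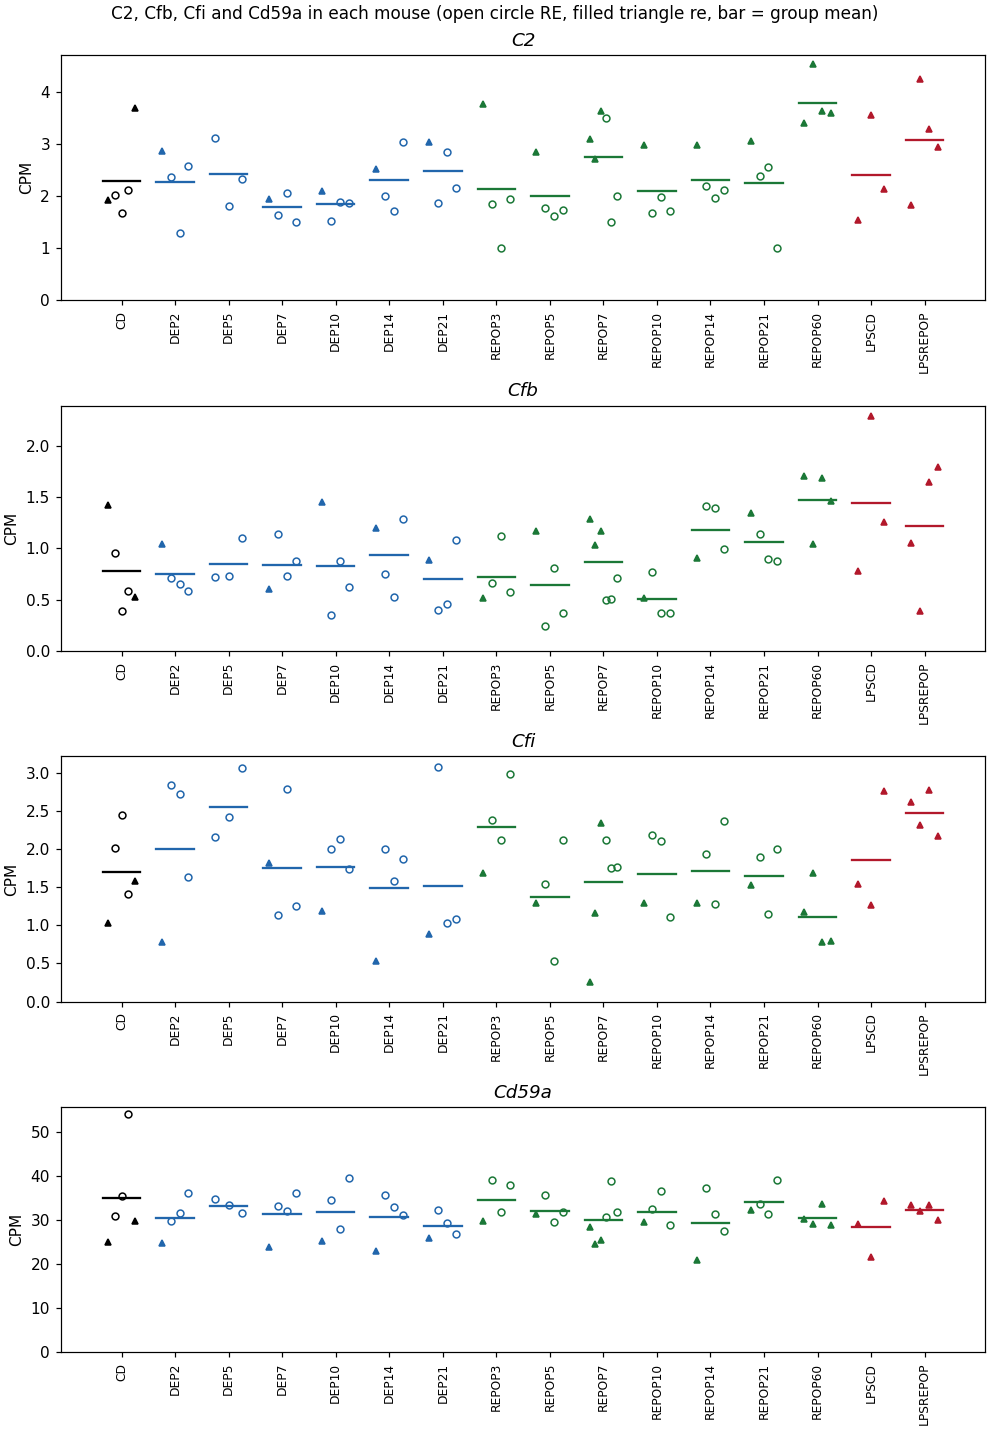
Levels of C2, Cfb, Cfi and Cd59a in each mouse by group, in CPM on linear axes from 0; open circles are RE mice, filled triangles re mice and bars group means. C2 and Cfb were highest in REPOP60, a group of re mice alone, with means of 3.79 and 1.47 CPM, and LPS mice lie among the others for Cd59a.

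C3ar1, the receptor for C3a, had fewer reads in depleted retinas than in CD, although its test did not pass. CD mice had 4, 3, 1, 3 and 4 reads. Depleted mice had 3, 2, 0 and 1 reads at DEP2, 2, 0 and 0 at DEP5, 2, 0, 1 and 2 at DEP7, 0, 1, 1 and 0 at DEP10, 1, 0, 1 and 0 at DEP14, and 2, 0, 1 and 1 at DEP21. Reads were thus present in 14 of 23 depleted mice, mostly as 1 or 2. Summed over DEP5 to DEP21, 15 reads in 19 mice against 15 reads in 5 CD mice gave a ratio of depth-scaled reads of 0.259 (95% exact interval 0.118 to 0.569), and REPOP3 to REPOP7 gave 0.239 (0.096 to 0.569). Such intervals hold counting error alone, without the variation from mouse to mouse. The edgeR test over mice gave an FDR of 0.52 for DEP5 to DEP21 (log2 fold change -1.87, SE 0.54, unadjusted p = 0.0018), a fitted value that rests on few reads.

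Later in repopulation the C3ar1 reads of all groups overlapped the 1 to 4 reads of CD, with some mice above them. REPOP14 mice had 5, 1, 2 and 4 reads, REPOP21 mice 2, 2, 4 and 5, and REPOP60 mice 3, 2, 5 and 7. REPOP14 and REPOP21 together had 4.18 times the depth-scaled reads of DEP5 to DEP21 (2.12 to 8.53) and 1.08 times those of CD (0.550 to 2.21). The test of the first difference over mice gave a log2 fold change of 1.99 (SE 0.46, unadjusted p = 0.000177, FDR 0.086), and C3ar1 was not called (0.109% of all genes were). Between these points, REPOP10 had 0, 1, 6 and 0 reads, so that 1 of its mice exceeded every CD mouse and the others had no more than 1 read.

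**Figure D3:**
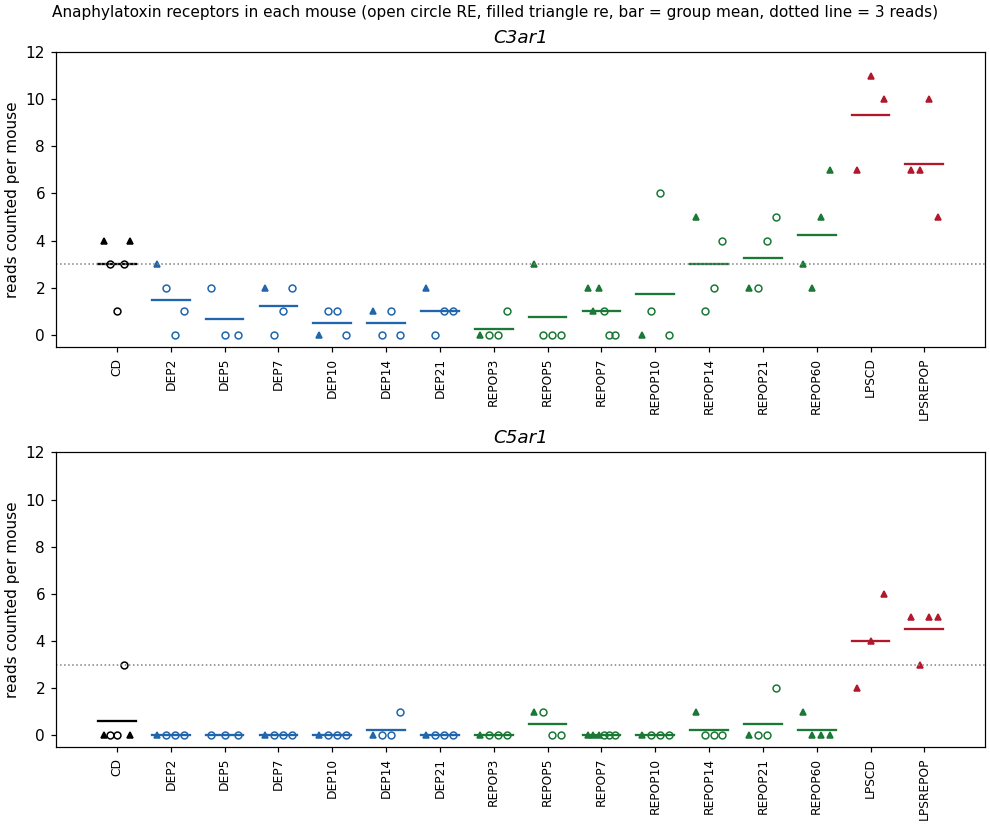
Reads of the receptors C3ar1 and C5ar1 in each mouse by group, with the dotted line at 3 reads; open circles are RE mice and filled triangles re mice. C3ar1 had 0 to 3 reads in every depleted mouse, 1 to 4 in CD and 5 to 11 with LPS; C5ar1 was at 0 in 51 of the 58 mice without LPS and had 2 to 6 reads in the 7 LPS mice.

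C5ar1, the receptor for C5a, was at or under the detection limit without LPS. Its 58 libraries without LPS held 10 reads in all, 51 of them none, and the highest were 3 reads in CD mouse 4 and 2 in REPOP21 mouse 4. A count of 0 allows up to 3 reads in a library, so a difference with microglial loss was not detectable at this depth. C5ar1 passed the filter on low counts in only 1 of the 13 diet comparisons (REPOP5).

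**Figure D4:**
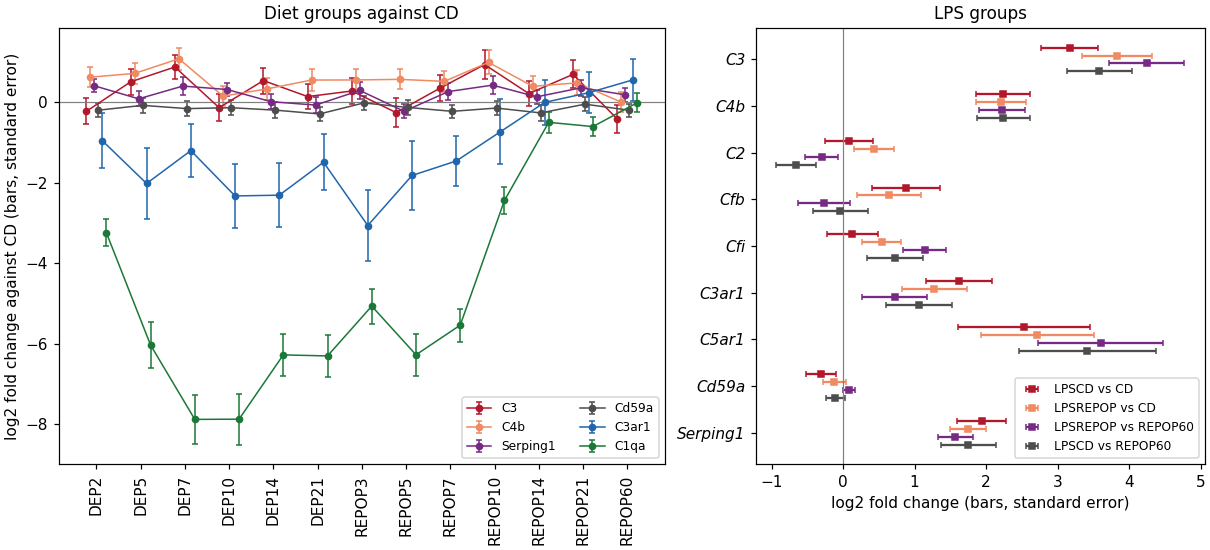
Log2 fold changes with standard errors from edgeR. Left, C3, C4b, Serping1, Cd59a, C3ar1 and, for comparison, the C1q subunit C1qa in each diet group against the shared CD mice, where C3ar1 and C1qa rest on few reads; right, the 9 genes in the 4 comparisons of LPS groups with groups without LPS. C4b at DEP7 (1.08) is the highest value on the left, and C3 (3.17 to 4.25) is the highest on the right in 4 of 4 comparisons.

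To ask how the same genes stood with systemic LPS, LPSCD and LPSREPOP retinas were compared with CD and with REPOP60. In LPSCD against CD, 1 of the 9 genes, C3, was called (0.165% of all genes were called, 0.161% higher), and C4b and Serping1 were just outside the threshold. In LPSREPOP against CD, C3, C4b and Serping1 were all called higher (0.218% of all genes, 0.21% higher). Of the 9 genes, 4 stood wholly above CD in LPSCD and 5 in LPSREPOP, beside 6.43% and 2.75% of all genes; for C5ar1 in LPSREPOP this rests on depth scaling of 2 mice with 3 reads each. The median log2 fold change of the 9 genes was 1.62 in LPSCD and 1.28 in LPSREPOP, beside 0.0097 and 0.015 over all genes.

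C3 had the greatest difference of the members with LPS. LPSCD mice had 5.55, 19.3 and 25.3 CPM (43, 152 and 202 reads) and LPSREPOP mice had 17.8, 32.4, 52.0 and 3.71 CPM (136, 251, 411 and 29 reads), against 0.660 to 2.58 CPM in CD. All 7 LPS mice were above every CD mouse and 6 of 7 above every one of the 58 mice without LPS, the exception being LPSREPOP mouse 4. C3 rose 8.99-fold in LPSCD (log2 fold change 3.17, SE 0.40, FDR 0.0019) and 14.2-fold in LPSREPOP (3.83, SE 0.49, FDR 0.000315). Within re mice the means were 16.7 CPM in LPSCD and 26.5 CPM in LPSREPOP against 1.62 CPM in the 2 re mice of CD. With the title ending as a covariate, C3 stayed called in LPSREPOP (4.01, FDR 0.00104) but not in LPSCD (3.35, FDR 0.0879).

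C4b differed by a similar factor in both LPS groups. LPSCD mice had 9.04, 17.4 and 39.4 CPM and LPSREPOP mice 14.3, 32.6, 32.9 and 6.53 CPM, against 2.38 to 6.45 CPM in CD. Every LPS mouse was above every CD mouse, the lowest of them, LPSREPOP mouse 4, by a small margin, and 5 of 7 were above all mice without LPS. The log2 fold change was 2.24 in LPSCD (SE 0.38, FDR 0.0108, not called) and 2.21 in LPSREPOP (SE 0.35, FDR 0.0025, called, 4.64-fold). The call in LPSREPOP was lost with the title ending as a covariate (1.86, FDR 0.0181).

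Serping1, the inhibitor of the classical pathway proteases, ordered the LPS mice as C4b did. LPSCD mice had 10.3, 15.6 and 45.1 CPM and LPSREPOP mice 14.9, 28.2, 30.6 and 9.60 CPM, against 4.75 to 7.52 CPM in CD. All 7 were above every CD mouse, and 5 of 7 above all mice without LPS. The log2 fold change was 1.94 in LPSCD (SE 0.35, FDR 0.0146, not called) and 1.75 in LPSREPOP (SE 0.25, FDR 0.0011, called, 3.36-fold).

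The size of these differences varied between LPS mice, and within each LPS group the mice had the same rank order for all 3 genes. LPSREPOP mouse 4 was the lowest of its group and LPSCD mouse 1 the lowest of its own, while LPSCD mouse 3 held the highest Serping1 and C4b of the study. Without LPSCD mouse 3, no member was called in LPSCD against CD (C3 FDR 0.0414, and log2 fold changes of 1.51 for C4b and 1.07 for Serping1). Without LPSCD mouse 1 or 2, 3 members were called, and without CD mouse 1 or 2M, 2 were. In LPSREPOP against CD, 1 member was called without LPSREPOP mouse 2 or 3, and C4b was also lost without LPSREPOP mouse 1 (FDR 0.0223).

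Against REPOP60, whose mice are re like the LPS mice, C3, C4b and Serping1 kept their order of log2 fold change. In LPSREPOP, 3 of the 9 genes were called higher (0.437% of all genes called, 0.393% higher): C3 19.03-fold (log2 fold change 4.25, SE 0.52, FDR 1.14e-05), C4b (2.22, SE 0.32, FDR 9.97e-05) and Serping1 2.97-fold (1.57, SE 0.24, FDR 0.000246). In LPSCD, C3 was called (3.59, SE 0.46, FDR 0.0027; 0.188% of all genes called, 0.18% higher) and C4b (2.24, FDR 0.0104) and Serping1 (1.75, FDR 0.0339) were not. Of the 9 genes, 5 in LPSREPOP and 4 in LPSCD stood wholly above REPOP60, beside 3.98% and 7.42% of all genes. Both comparisons share the 4 REPOP60 mice. With the start of the title number as a covariate, none was called in either, and leaving out any 1 of the REPOP60 mice lost the LPSCD call.

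Both receptors were counted more often with LPS, with values that did not pass the test. C3ar1 had 7, 11 and 10 reads in LPSCD and 7, 7, 10 and 5 in LPSREPOP, all above the 1 to 4 reads of CD. The ratio of depth-scaled reads to CD was 3.24 (95% exact interval 1.67 to 6.53, counting error only) in LPSCD and 2.56 (1.33 to 5.13) in LPSREPOP, and the edgeR FDRs were 0.0685 and 0.16. Against REPOP60 the ratios were 2.15 (1.14 to 4.18) and 1.69 (0.900 to 3.29), and the groups overlapped.

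C5ar1 had 2, 4 and 6 reads in LPSCD and 5, 3, 5 and 5 in LPSREPOP. The ratio to the 3 reads of CD was 6.94 (1.87 to 38.3) and 7.93 (2.32 to 42.0), with edgeR FDRs of 0.12 and 0.0891, and the ratio to the 1 read of REPOP60 was 15.7 (2.32 to 669) and 17.9 (2.82 to 745), with FDRs of 0.080 and 0.0201. Both LPS groups stood above REPOP60 without overlap. Against CD, LPSREPOP mouse 2 and CD mouse 4 both had 3 reads and stood apart only after scaling for depth (0.387 and 0.352 CPM), and 1 LPSCD mouse had fewer reads than CD mouse 4.

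The remaining members stood mostly within the range of mice without LPS. C2 had 1.55, 3.56 and 2.13 CPM in LPSCD and 1.84, 4.25, 3.29 and 2.94 CPM in LPSREPOP, Cfb 0.775, 2.29 and 1.25 CPM and 1.05, 0.387, 1.64 and 1.79 CPM, and Cd59a 29.0, 21.5 and 34.4 CPM and 33.4, 32.1, 33.3 and 29.96 CPM. For C2, Cd59a and Cfi no LPS mouse was above every mouse without LPS, and for Cfb 2 of 7 were. The log2 fold changes against CD in LPSCD were 0.08 (SE 0.34) for C2, 0.88 (SE 0.47) for Cfb and -0.31 (SE 0.21) for Cd59a. Against REPOP60, whose mice are all re, they were -0.65 (SE 0.28, FDR 0.23) for C2, -0.04 (SE 0.39) for Cfb and -0.11 (SE 0.13) for Cd59a.

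For Cfi, which inactivates C3b and C4b, the difference also depended on the reference group. It had 1.55, 1.27 and 2.76 CPM in LPSCD and 2.62, 2.32, 2.78 and 2.18 CPM in LPSREPOP. LPSREPOP stood wholly above REPOP60 (1.18, 1.69, 0.778 and 0.799 CPM), with a log2 fold change of 1.14 (SE 0.30, FDR 0.0315, not called), and overlapped CD (0.54, SE 0.27, FDR 0.30).

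To ask whether retinas with repopulated and with resident microglia differed under LPS, the 2 LPS groups were compared directly. No gene was called in LPSREPOP against LPSCD (0% of all genes in edgeR, 0 at FDR under 0.05, and 8.05% at an unadjusted p under 0.05, with none of the 9 genes among them), and DESeq2 called 0 genes, limma on FPKM 10, edgeR without the filter on low counts 1 and edgeR with all 16 groups in 1 fit 6, with none of the 9 among them. The log2 difference was 0.66 for C3 (SE 0.58, FDR 0.74), -0.02 for C4b (SE 0.48, FDR 0.99) and -0.18 for Serping1 (SE 0.43, FDR 0.92). These standard errors leave room for differences in either direction: the LPSREPOP C3 values, 3.71 to 52.0 CPM, enclosed those of LPSCD. The difference between the LPS effects, repopulated against REPOP60 minus resident against CD, was not called for any gene by edgeR with the filter on low counts or by DESeq2 (0%, and 14.5% of genes at an unadjusted p under 0.05 in edgeR). It was called for 133 genes by edgeR without that filter, for 3 under the replicate block and for 5 by limma on FPKM, none of them a member. It was 1.08 for C3 (SE 0.88, FDR 0.60), -0.02 for C4b (SE 0.59), -0.36 for Serping1 (SE 0.49) and 1.01 for Cfi (SE 0.46, FDR 0.32).

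Levels of C3, C4b and Serping1 were correlated over mice, in sets that each pool several groups. Correlations of log2(CPM + 1) were computed for 9 relations, the 3 pairs of genes within RE mice, within re mice without LPS and within LPS mice, with permutation p-values adjusted over the 9. Differences between groups enter these values, and the permutations exchanged mice across groups. For each pair, r of the deviations from group means is therefore given too, without a p-value. In the 7 LPS mice, C4b and Serping1 had the highest value, Pearson r = 0.973 (exact permutation p = 0.000198, the smallest possible with 7 mice, adjusted 0.000893) and Spearman rho = 1 (exact p = 0.000397, adjusted 0.00357), and r was 0.992 without the 2 mice farthest from the median. C3 and C4b had r = 0.926 (exact permutation p = 0.00258, adjusted 0.00464) and rho = 0.893 (exact p = 0.0123, adjusted 0.0185), with r = 0.709 without the 2 farthest mice. C3 and Serping1 had r = 0.84 (exact permutation p = 0.0179, adjusted 0.0201) and rho = 0.893 (exact p = 0.0123, adjusted 0.0185), with r = 0.59 without the 2 farthest. Deviations from the means of the LPS groups had r = 0.973 for C4b and Serping1, 0.942 for C3 and C4b and 0.858 for C3 and Serping1.

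Without LPS the relations were weaker. In the 39 RE mice, C4b and Serping1 had r = 0.586 (permutation p = 7e-05, adjusted 0.00063) and rho = 0.428 (p = 0.0066, adjusted 0.0163), with r = 0.524 without the 2 farthest mice, and C3 and C4b had r = 0.526 (p = 0.00065, adjusted 0.00195) and rho = 0.423 (p = 0.00724, adjusted 0.0163), with r = 0.454. C3 and Serping1 had r = 0.39 (p = 0.0146, adjusted 0.0188), which was 0.232 without the 2 farthest mice, and rho = 0.202 (p = 0.216, adjusted 0.216), so this relation rests on those mice. In the 19 re mice without LPS, r was 0.578 for C3 and C4b (p = 0.00939, adjusted 0.0141; rho 0.609, p = 0.00665, adjusted 0.0163; r = 0.508 without the 2 farthest), 0.680 for C3 and Serping1 (p = 0.00134, adjusted 0.00302; rho 0.488, p = 0.0357, adjusted 0.0459; r = 0.55) and 0.436 for C4b and Serping1 (p = 0.0612, adjusted 0.0612; rho 0.409, p = 0.0831, adjusted 0.0935; r = 0.469). Deviations from group means in RE mice had r = 0.741 for C4b and Serping1, 0.407 for C3 and C4b and 0.341 for C3 and Serping1. Those in re mice without LPS had r = 0.293, 0.400 and 0.674 for the same pairs.

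**Figure D5:**
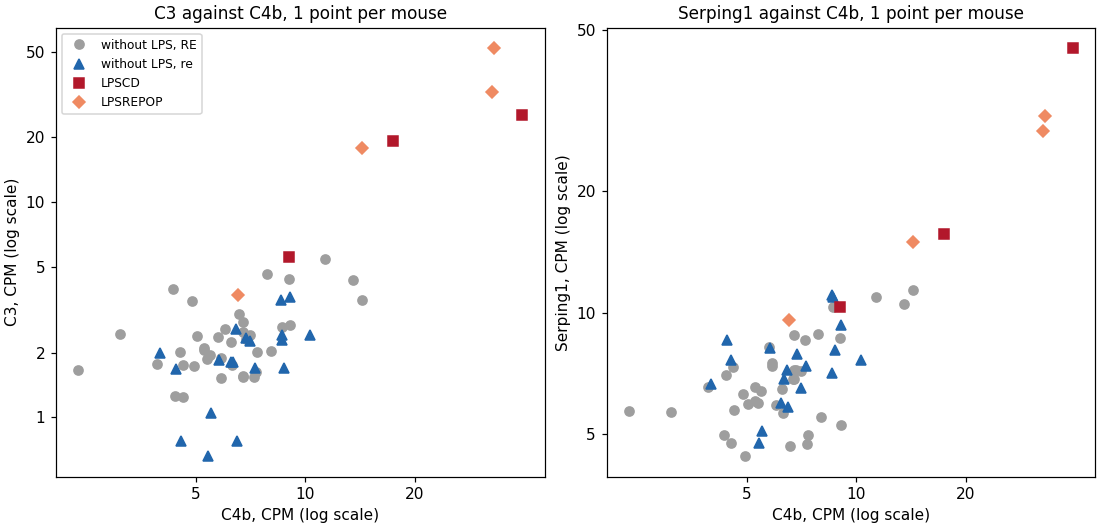
Each point is a mouse, with C4b on the x axes and C3 (left) or Serping1 (right) on the y axes, in CPM on log axes; grey circles are RE and blue triangles re mice without LPS, red squares LPSCD and orange diamonds LPSREPOP. In the 7 LPS mice C4b and Serping1 had the same rank order (rho = 1), and LPSREPOP mouse 4, at 3.71 CPM of C3, lies among the mice without LPS.

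The genes most alike to the members from mouse to mouse differed between members. Likeness was the Pearson correlation of log2(CPM + 1) over the 39 RE mice (15758 genes) or the 26 re mice (16008 genes), of which 7 received LPS. In RE mice, C4b was most like Serpina3n (0.81), Gfap (0.72) and A2m (0.67), of which Gfap encodes the intermediate filament of reactive glia. In re mice, C4b was most like Serpina3n (0.97), Chil1 (0.94) and Cp (0.94), Serping1 like Clu (0.95), Serpina3n (0.95) and Chil1 (0.94), and C3 like the acute-phase gene Saa3 (0.95), the interferon-induced Ifitm3 (0.95) and Ly6a (0.93). In RE mice, where no mouse received LPS, C3 was instead most like Fmod (0.66), Timp3 (0.65) and Olfml2a (0.60), which encode proteins of the extracellular matrix, and Serping1 like Tmem19 (0.74), Mzt1 (0.72) and Tmem59 (0.66).

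The members with small differences had other partners. In RE mice, C2 was most like Opn4 (0.64), which encodes melanopsin of intrinsically photosensitive ganglion cells, Kirrel3 (0.64) and Lrfn5 (0.62), Cfi like Gm42517 (0.58), Dlst (0.54) and Stambpl1 (0.54), and Cd59a like Gabra2 (0.61), Gm5415 (0.56) and Tmem181b-ps (0.54). In re mice, C2 was most like Slc25a14 (0.68), Plpp1 (0.65) and Gpr35 (0.64), Cfb like Ddx21 (0.72), Cfi like Fxyd1 (0.82), Nectin2 (0.77) and Ctsd (0.74), and Cd59a like Cyp27a1 (0.74), Pid1 (0.73) and Zc3h7b (0.70).

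Of 44 other listed complement genes, 26 to 32 were tested per comparison. In the pooled comparison of DEP5 to DEP21 with CD, 2 of 30 were called, both lower, beside 0.122% of all genes. They were Itgam (log2 fold change -4.16, SE 0.52, FDR 4.14e-05) and Itgb2 (-2.74, SE 0.51, FDR 0.009), the subunits of complement receptor 3 of microglia and other myeloid cells. The median over the 30 genes was 0.025, beside -0.0095 over all genes. With LPS, 1 of 27 genes was called in LPSCD against CD, beside 0.165% of all genes: Itgb2, higher (2.45, SE 0.37, FDR 0.0065). In LPSREPOP against CD, 2 of 27 were called, both higher, beside 0.218% of all genes. They were Itgb2 (2.04, SE 0.35, FDR 0.0047) and Cd93 (1.26, SE 0.24, FDR 0.0094). The medians were 0.22 and 0.36, beside 0.0097 and 0.015 over all genes.

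Other genes of the cascade stood higher with LPS without being called. C1ra, a protease of the C1 complex that is inhibited by the product of Serping1, had 0.231 ± 0.193 CPM in CD, 2.52 ± 2.13 CPM in LPSCD and 1.60 ± 0.822 CPM in LPSREPOP (FDR 0.0231 and 0.0126). Clu, an inhibitor of the terminal pathway, had 502 ± 33.9 CPM in CD, 864 ± 296 CPM in LPSCD and 737 ± 154 CPM in LPSREPOP (FDR 0.0227 and 0.0117). Against REPOP60, among the genes reported here, Itgb2 (2.51, FDR 0.000453) and Cd93 (1.53, FDR 0.000342) were called higher in LPSREPOP, while properdin, Cfp, which stabilises the alternative pathway convertase, was at -0.34 (FDR 0.0417, not called). LPSCD against REPOP60 had 1 of 27 called, Itgb2 (2.92, FDR 0.0065), beside 0.188% of all genes.

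Markers of several cell types moved with the LPS groups, and their part in these results was not tested. Beside the higher microglial sums, the summed blood monocyte and neutrophil markers (10 genes) were 1.88 to 6.83 CPM in CD and 1.95 to 4.79 CPM in REPOP60. They were 6.23 to 10.9 CPM in LPSCD and 10.5 to 24.5 CPM in LPSREPOP. Of the 10 genes, 9 were counted in CD and all 10 in REPOP14 and in both LPS groups. Summed reads of Lyz2 were 32 in CD, 102 in LPSCD and 230 in LPSREPOP, whereas Ccr2 had 2, 1 and 1 and Camp 12, 8 and 10. Perivascular macrophage markers (8 genes) were 16.8 to 23.5 CPM in CD, 20.1 to 24.0 CPM in LPSCD and 20.6 to 29.4 CPM in LPSREPOP, so both LPS groups overlapped CD. Their genes with the most reads in CD, Lyve1 and Stab1, went opposite ways. Lyve1 was 11.8 to 16.9 CPM in CD, 8.65 to 11.8 CPM in LPSCD and 10.5 to 12.4 CPM in LPSREPOP. Stab1 was 4.04 to 5.99, 9.04 to 11.9 and 7.48 to 13.3 CPM. Stromal markers (9 genes) were 63.3 to 73.8 CPM in CD, 106 to 109 CPM in LPSCD and 95.8 to 120 CPM in LPSREPOP, and pigment epithelium markers (10 genes) were 286 to 325, 120 to 258 and 154 to 278 CPM. Red blood cell markers (5 genes) were 3.48 to 11.7 CPM in CD, 1.03 to 4.71 CPM in LPSCD and 0.262 to 2.56 CPM in LPSREPOP, and lens markers (8 genes) were 24.5 to 38.8, 31.6 to 64.2 and 32.9 to 38.4 CPM. The LPSCD mouse 3 with the highest C4b and Serping1 had the lowest pigment epithelium sum, 120 CPM, the highest lens sum, 64.2 CPM, and the lowest Mueller glia and astrocyte sum, 2691 CPM, of the LPS mice, and LPSREPOP mouse 4 with the lowest C3 had their lowest microglial sum, 81.3 CPM.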

How the data were processed

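Retinal RNA was isolated with TriPure reagent, selected for polyA per the labels (the study's methods name rRNA depletion as an alternative) and sequenced as 50-base single-end reads (BGISEQ-500). The authors aligned reads to mm10 with HISAT2 and deposited raw counts per gene from HTSeq. The authors also deposited FPKM values from StringTie. Strand setting, versions and annotation are not given in the sources used here. Sample descriptions gave the groups, and 0 columns stayed unmapped. GENCODE M21 (GRCm38) gave symbols for 50376 of 50686 identifiers.

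Counts were scaled by TMM and tested with edgeR 4.0.16 (quasi-likelihood F test, R 4.3.3) in 21 comparisons, keeping genes that reached a count of 1 in a fraction of 0.5 or above of either group's mice. P-values were adjusted by Benjamini-Hochberg over all genes. The study's thresholds were used for calls (FDR 0.01, absolute log2 fold change 1). The study adds a batch term but names no batch, so none was in the model. Libraries of 5106429 to 8760443 reads make 3 reads the detection floor, and counting intervals are exact at 95%. Nothing says whether mice of a group shared a litter. Permutation tests used all orders or 100000 draws, with a pseudocount of 1 CPM. The alternatives were RLE scaling, DESeq2 1.42.0, other filters, title ending or replicate number as a term, 1 fit over 16 groups, a looser threshold and limma 3.58.1 on log2(FPKM + 0.1). Same-numbered mice were taken as paired where all their deviations from the group means correlated above 0.1 (r = 0.118 to 0.697 for DEP2 and 0.304 to 0.761 for DEP7), which held in 8 comparisons with CD. Same-numbered mice also shared their title ending in these comparisons, the ending was not removed from the deviations, and no label pairs the mice. The scripts were tested on simulated data. All 9 members were named, and other complement genes where called, with at most 5 more at FDR under 0.05, except for an item that is not reported here; up to 3 genes were named by likeness. The members and lists were chosen with earlier results of these data known.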

Additional observations from a re-analysis of the deposited data

Results flagged for a closer look

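In 4 of 105 sets of 1 gene in 1 group of 4 or more mice, a mouse lay far from the others by Dixon's criterion, which chance exceeds in about 1 of 20 sets. CD mouse 2M, a re mouse, had 3.70 CPM of C2 (28 reads), against 1.68 to 2.11 CPM in the other CD mice. REPOP5 mouse 1, the re mouse of a group with 3 RE mice, had 2.86 CPM of C2 (22 reads), against 1.61 to 1.78 CPM. DEP21 mouse 2 had 3.08 CPM of Cfi (23 reads), against 0.885 to 1.08 CPM. LPSREPOP mouse 2 had 0.387 CPM of C5ar1 (3 reads), against 0.633 to 0.656 CPM in the other mice of its group.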

How the results depend on the processing

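No called value changed direction under any alternative. LPSCD against CD had 1 member called (39 of 23606 genes tested), but 0 with the title ending as a covariate (0) or with limma on FPKM (22). It had 3 with DESeq2 (152), no gene filter (311 of 29288), the replicate block (96), 1 fit over all 16 groups (301) or FDR under 0.05 with no fold threshold (574). Numbers in brackets after each setting, here and in the next comparisons, count all genes that passed. LPSREPOP against CD had 3 (53), but 1 with edgeR's filterByExpr (18) and 0 with limma on FPKM (5). With the title ending as a covariate (34), C3 stayed called in this comparison and C4b did not. LPSREPOP against REPOP60 had 3 (109), but 5 at FDR under 0.05 (728) and 0 with limma on FPKM (5). It had 0 with the start of the title number as a covariate (10), an alternative chosen after seeing the data. LPSCD against REPOP60 had 1 (46), but 2 with DESeq2 (94) and 0 with limma on FPKM (9) or the title number start (1). It had 3 with no gene filter (224), all 16 groups (182) or FDR under 0.05 (581). The cause was not tested. Leaving out each mouse gave 0 to 3 members called in LPSCD against CD, 1 to 3 in LPSREPOP against CD, 1 to 3 in LPSREPOP against REPOP60 (1 without REPOP60 mouse 4, and Serping1 lost without REPOP60 mouse 1, FDR 0.0134), 0 to 3 in LPSCD against REPOP60 and 0 in all other comparisons. In the comparisons taken as paired, whose same-numbered mice also share a title ending, the replicate block called C4b in DEP7 (1 member against 0) and changed no other call. In that fit 0.0667% of all genes were called higher. In the unpaired LPSCD against CD, same-numbered mice share only a number, and 3 members were called with the block. Over all alternatives, 3158 fold changes kept their side of the threshold, 25 passed it and 29 lost it. C3ar1, C5ar1 and Cfb had the fewest counted reads, at 11 or fewer in each CD mouse. For Cfb the counts and the FPKM values disagree, and the cause was not tested.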
